A study of Mus musculus with 7 samples.

Results

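The genes described here are 9 mouse enzymes that recycle nucleosides and free bases or supply thymidylate: Upp1, Hprt, Aprt, Pnp, Adk, Tk1, Tyms, Dck and Uck2. They were taken by name, 9 of 29686 genes and 82 of 270168 exon rows, and their levels were read in all 7 libraries of the series. They were selected on their RPKM levels (reads per kilobase of exon and library megaread) in these same libraries, chiefly those of Upp1 on day 6 and Hprt in iPSC, so the levels are given as a description. A gene level here is an average over the exons of the gene in which longer exons weigh more.

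Cells obtain nucleotides by building them from small precursors (de novo synthesis) or by recycling bases and nucleosides (salvage). Hprt joins hypoxanthine or guanine to ribose phosphate, and cells that lack it survive 6-thioguanine and die in medium that blocks de novo synthesis and supplies hypoxanthine and thymidine. Aprt does the same for adenine, Pnp splits purine nucleosides and Adk phosphorylates adenosine. On the pyrimidine side, Upp1 splits uridine to uracil, Uck2 phosphorylates uridine and cytidine, Dck phosphorylates deoxycytidine and Tk1 phosphorylates thymidine. Tyms makes thymidylate from deoxyuridylate, and Tk1 and Tyms are known as genes of S phase.

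The series followed fibroblasts made into neural stem cells (NSC) with the factors Oct4, Sox2, Klf4 and Myc (OSKM). RNA was sequenced from 7 cultures, 1 library each. The mouse embryonic fibroblasts (MEF) and the induced pluripotent stem cells (iPSC) were of strain A12 (Mbd3 flox/-), which has 1 conditional and 1 null allele of Mbd3, a chromatin repressor subunit. The day 6 cells and both OSKM NSC libraries were B6/129 cells. They carried Rosa26-TdTomato from a B6 mother and Col1a-OSKM from a 129 father, and came from MEFs with a Nanog-CreER reporter, in which tamoxifen-bound Cre switches on Tomato in cells that express Nanog. Day 6 cells had received doxycycline and 4OHT from day 1 to day 6 and were sorted as Tomato positive, without feeder cells. The OSKM NSC were subcloned by hand, 1 culture positive and 1 negative for Tomato, also without feeders. Brain NSC came from BDF2 embryos of E12.5 by their description and a day older by the culture protocol. The embryonic stem cells (ESC) were of line v6.5 on MEF feeders, and the iPSC description mentions feeders with question marks. Strain, reporter and feeders differ between the groups and cannot be told apart from them. With 1 library per group no test was possible. Intervals below cover counting error only. The share of all genes that pass the same fold is given as a background. It cannot stand in for a test, because the genes described were selected on their levels in these same libraries.

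Library depth was 19 to 58 megareads. The non-coding gene Gm42418 held 8.82% of all exon reads summed for day 6, and 0.0258% to 0.0657% in other libraries. Reads were also spread least evenly over exons there: the median standard deviation of exon log2 values around the gene's own profile was 0.60, against 0.12 to 0.25 in the other libraries (6825 genes). The fibroblast, pluripotency and neural marker sums were each highest in libraries of that label, but some libraries also held markers of another type. The 6 fibroblast markers summed to 33369 RPKM in MEF, 2924 in ESC, 1447 in Tomato-positive NSC and 4.40 to 108 elsewhere. Of the 6 pluripotency markers, the sum was 6978 in iPSC, 8870 in ESC, 1042 on day 6 and at most 11.2 elsewhere, with Zfp42 listed at 0 in both OSKM NSC libraries. On day 6, Pou5f1, which encodes the factor Oct4, held 886 RPKM of the sum. Dppa5a stood at 12.3 RPKM there, against 2867 in iPSC and 5932 in ESC, and Nanog at 67.2, against 772 and 765. Each of the 6 was lower on day 6 than in iPSC and ESC. The 7 neural stem cell markers summed to 3136 to 9872 in the 3 NSC libraries and to at most 260 elsewhere. Most of each NSC sum was Fabp7, at 6511 RPKM in Tomato-positive, 8761 in Tomato-negative and 2394 in brain NSC. Of the 7 markers, Sox2 was highest in iPSC, at 252 RPKM, against 116 to 201 in the NSC libraries. The MEF library also held 3740 RPKM of 6 myeloid markers, against 8.85 to 166 in the others, and the part of such RNA in the MEF levels below was not tested. In such bulk libraries, fewer cells of a type and less RNA per cell cannot be told apart.

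The deposited exon values also count reads whose spliced alignment passes over an exon without touching it. This was seen in exons of non-coding genes that lie inside an intron of a coding gene. Of 120 such exons in ESC, none was without reads and 1 held less than 0.1 times the reads of the lower flanking exon, with a median ratio of 0.86. The medians of the other libraries were 0.56 to 0.70, and none of their nested exons was without reads. A value for an exon is therefore an upper limit on its own use, and short exons have high RPKM.

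Promoter windows of 250 bases before to 50 bases after the annotated start are shown for the genes with the widest ranges of level, from RefSeq (GRCm38.p6). Upp1 has more than 1 annotated start, and 2 of its windows are given because the libraries differed at the first exons that follow. Upp1 A lies at chr11:9117853-9118152, Upp1 B at chr11:9118257-9118556, Hprt at chrX:52987828-52988127, all on the plus strand, and Tyms at chr5:30073576-30073875 on the minus strand. Capitals mark a GC box (GGGCGG) and, in Tyms, an E-box (CACGTG).
Upp1 A: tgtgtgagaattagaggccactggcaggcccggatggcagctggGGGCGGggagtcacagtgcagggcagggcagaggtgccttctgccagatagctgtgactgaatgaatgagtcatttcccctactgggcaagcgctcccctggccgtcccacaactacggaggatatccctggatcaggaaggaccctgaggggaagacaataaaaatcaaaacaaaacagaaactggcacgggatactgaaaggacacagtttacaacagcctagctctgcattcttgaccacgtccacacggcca
Upp1 B: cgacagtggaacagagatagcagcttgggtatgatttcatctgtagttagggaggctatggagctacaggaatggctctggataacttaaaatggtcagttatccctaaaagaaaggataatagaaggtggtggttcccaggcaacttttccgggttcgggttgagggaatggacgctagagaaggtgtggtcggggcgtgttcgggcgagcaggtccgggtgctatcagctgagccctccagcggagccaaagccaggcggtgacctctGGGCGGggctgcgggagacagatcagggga
Hprt: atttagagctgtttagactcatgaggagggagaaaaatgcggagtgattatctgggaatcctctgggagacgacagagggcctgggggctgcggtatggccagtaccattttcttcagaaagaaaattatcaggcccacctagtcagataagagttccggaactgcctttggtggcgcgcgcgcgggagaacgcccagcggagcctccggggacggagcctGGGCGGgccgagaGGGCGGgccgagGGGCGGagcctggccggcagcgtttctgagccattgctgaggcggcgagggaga
Tyms: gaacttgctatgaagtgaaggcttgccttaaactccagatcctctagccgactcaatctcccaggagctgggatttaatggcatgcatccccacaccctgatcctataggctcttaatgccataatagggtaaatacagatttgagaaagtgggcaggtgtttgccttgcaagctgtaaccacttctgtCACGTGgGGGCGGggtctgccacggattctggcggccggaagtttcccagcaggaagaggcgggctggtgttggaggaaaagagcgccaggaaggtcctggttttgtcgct
The Hprt window held 3 GC boxes, which begin at -29, -16 and -4 relative to the annotated start. All 12 windows of the 9 genes held at least 1 GC box on either strand, against 35.7% of 32851 RefSeq windows of the same length. Upp1 A overlaps a further Upp1 window, at chr11:9117758-9118057, and both hold the same GC box. The 12 windows had 47.3% to 75% G and C and 7 to 33 CG pairs, against medians of 52.7% and 7 over all windows. The part of base composition in the GC box count was not tested. The E-box was in Tyms alone, against 7.15% of all windows. CCAAT was in 4 windows, of Adk, Pnp and Uck2, against 37.4%. No window held the E2F forms TTTCGCGC (0.323% of all windows) and TTTGGCGC (0.514%), the octamer ATGCAAAT (1.74%) or TATAAA (13.6%).

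Upp1 and Hprt spanned by far the widest ranges, and in different libraries. Upp1 (chromosome 11, 9118103 to 9136170, plus strand) measured 7.28 RPKM in MEF and 0.491 on day 6, 23.4 and 45.1 in the Tomato-positive and Tomato-negative NSC, 48.0 in brain NSC, and 454 and 534 in iPSC and ESC. It was lowest on day 6, intermediate in the 3 NSC libraries and highest in both pluripotent libraries, between which the level differed by 1.18-fold. Hprt (chromosome X, 52988137 to 53021659, plus strand) measured 24.2 RPKM in MEF and 516 on day 6, 196 and 112 in the Tomato-positive and Tomato-negative NSC, 72.1 in brain NSC, and 0.669 and 549 in iPSC and ESC. Its lowest levels were those of iPSC and MEF, the 2 libraries of strain A12. The log2 range over the libraries, with 1 RPKM added, was 8.49 for Upp1 and 8.36 for Hprt. These ranges were wider than in 99.3% and 99.1% of the 18697 genes that reached 2 RPKM, whose median range was 2.13. Upp1 and Hprt were selected on their levels in these libraries, so these shares are descriptions only.

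**Figure D1:**
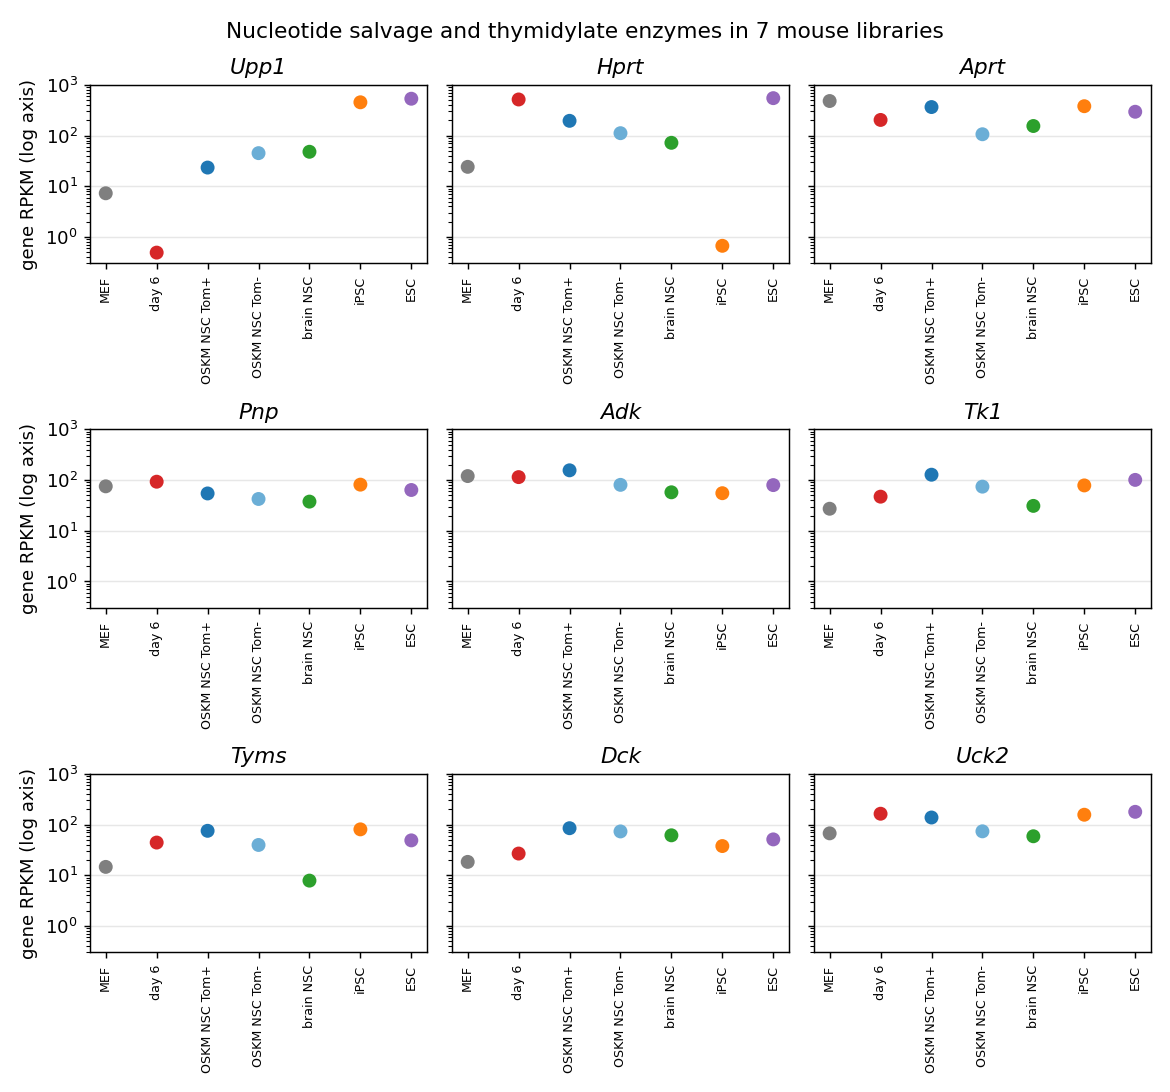
Level of each of the 9 genes in the 7 libraries, as gene RPKM on a log axis, 1 point per library with no replicates. Upp1 falls to 0.491 on day 6 and Hprt to 0.669 in iPSC, while the other 7 genes stay between 7.85 and 481 RPKM in every library.

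The other purine enzymes varied less. Aprt (chromosome 8, 122574637 to 122576909, minus strand) measured 481 RPKM in MEF and 204 on day 6, 366 and 106 in the Tomato-positive and Tomato-negative NSC, 155 in brain NSC, and 381 and 295 in iPSC and ESC. It was highest in MEF and lowest in Tomato-negative NSC, and its range of 4.53-fold was near the median of all genes. The order of its day 6 and brain NSC levels was not resolved by the reads. Adk (chromosome 14, 21052574 to 21448569, plus strand) measured 120 RPKM in MEF and 115 on day 6, 156 and 80.6 in the Tomato-positive and Tomato-negative NSC, 57.5 in brain NSC, and 55.2 and 79.7 in iPSC and ESC. Its order of Tomato-negative NSC and ESC, and of brain NSC and iPSC, was not resolved by the reads. For MEF over day 6 the ratio of Adk reads was 0.936 (0.907 to 0.966), opposite to the order of the RPKM levels. Pnp (chromosome 14, 50944302 to 50965237, plus strand) measured 75.4 RPKM in MEF and 93.0 on day 6, 54.5 and 42.4 in the Tomato-positive and Tomato-negative NSC, 37.6 in brain NSC, and 81.4 and 63.8 in iPSC and ESC. Pnp had the narrowest range of the 9 genes, 2.47-fold, and its 3 lowest levels were those of the 3 NSC libraries. The Pnp value rests on 6 exon rows, 3 of them shared with another gene. A further 14 annotated exons of it have no row, and the near-identical Pnp2 lies beside it, so reads of the 2 genes may be mixed.

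Among the pyrimidine and thymidylate enzymes, Tk1 and Tyms followed a similar order. Tk1 (chromosome 11, 117815526 to 117826092, minus strand) measured 27.2 RPKM in MEF and 47.1 on day 6, 128 and 74.3 in the Tomato-positive and Tomato-negative NSC, 31.0 in brain NSC, and 78.5 and 101 in iPSC and ESC. Tyms (chromosome 5, 30058827 to 30073617, minus strand) measured 14.6 RPKM in MEF and 44.2 on day 6, 75.4 and 39.7 in the Tomato-positive and Tomato-negative NSC, 7.85 in brain NSC, and 80.6 and 48.8 in iPSC and ESC. Both genes were lowest in MEF and brain NSC, and Tyms had the third widest range of the 9 genes, 10.3-fold. Over the 7 libraries the Pearson r of their log2 levels was 0.86, given as a description of libraries that differ in strain and cell type at once. Such likeness was not limited to these 2 genes, as r was 0.83 for Tyms with Uck2 and 0.68 for Tk1 with Uck2. The first exon of Tk1 overlaps Afmid and Gm20708, whose reads cannot be told apart from its own. Its exons 4 and 5 were low everywhere, for example 24.6 and 16.7 RPKM in Tomato-negative NSC beside 94.4 at exon 3.

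Dck and Uck2 were measured in every library too. Dck (chromosome 5, 88764996 to 88783281, plus strand) measured 18.4 RPKM in MEF and 26.8 on day 6, 84.9 and 73.3 in the Tomato-positive and Tomato-negative NSC, 61.5 in brain NSC, and 37.7 and 51.1 in iPSC and ESC. The 3 NSC libraries held its 3 highest levels. Uck2 (chromosome 1, 167222883 to 167285320, minus strand) measured 67.2 RPKM in MEF and 164 on day 6, 138 and 73.7 in the Tomato-positive and Tomato-negative NSC, 58.9 in brain NSC, and 157 and 179 in iPSC and ESC. The reads did not resolve the order of its day 6 and iPSC levels. For Tomato-negative NSC over MEF the ratio of Uck2 reads was 0.770 (0.731 to 0.811), opposite to the order of the RPKM levels. The first exon of Uck2 overlaps Gm2453.

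The iPSC and ESC libraries differed at Hprt over the whole gene. All 9 Hprt exon rows were at least 2-fold lower in iPSC, beside 17.4% of the 181617 exons measured. Hprt was selected on its iPSC level and its rows belong to the same gene, so this share and the rank below are descriptions only. From the 5′ end, the iPSC library held 0, 3, 12, 0, 0, 6, 7, 7 and 15 reads in them, 50 in all, and the ESC library held 28997. The gene level was 820-fold lower in iPSC, a ratio of 0.00122 (0.000904 to 0.00161), and only 3 of 15749 genes had a lower ratio. The 3-read limit at exon 1, which had no iPSC read, was 0.454 RPKM. For the other members, no Upp1, Aprt, Pnp, Adk, Tk1 or Dck exon row differed by 2-fold, 2 of 7 Tyms rows were higher and 2 of 7 Uck2 rows were lower in iPSC. By gene level, Hprt alone of the 9 passed 2-fold, where 14.5% of all genes were lower and 7.74% higher, 22.3% in all.

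Neighbours of Hprt on the X chromosome that reached 2 RPKM in iPSC or ESC did not share its low iPSC level. Upstream, Phf6, a nucleosome-associated protein, had 10.9 RPKM in iPSC and 10.5 RPKM in ESC. Gpc4, a cell surface proteoglycan, had 52.7 and 58.8 RPKM. Downstream, Fam122b had 24.4 RPKM in iPSC and 32.3 in ESC, and Mospd1 at 5.62 and 9.52. These 4 neighbours differed by less than 2-fold, as did Ccdc160, upstream, at 19.6 and 13.9 RPKM. Plac1, the nearest coding gene downstream, had 0.390 RPKM in iPSC and 0.170 in ESC, and Fam122c had 0 and 0.0655. Both were too low in each library to compare. Gpc3, another proteoglycan, was lower in iPSC, at 13.8 against 80.9 RPKM, and it was the nearest coding gene upstream to pass 2-fold. Over the 834 X-linked genes measured, 24.0% were 2-fold lower in iPSC, and the median log2 ratio was -0.41, against -0.18 over all genes. The fibroblast markers were also lower in iPSC than in ESC (86.0 against 2924 RPKM), and their part in the Hprt difference was not tested. The MEF library had Hprt at 4.41% of the ESC level and was of strain A12, like the iPSC. Strain and fibroblast RNA cannot be told apart in it.

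**Figure D2:**
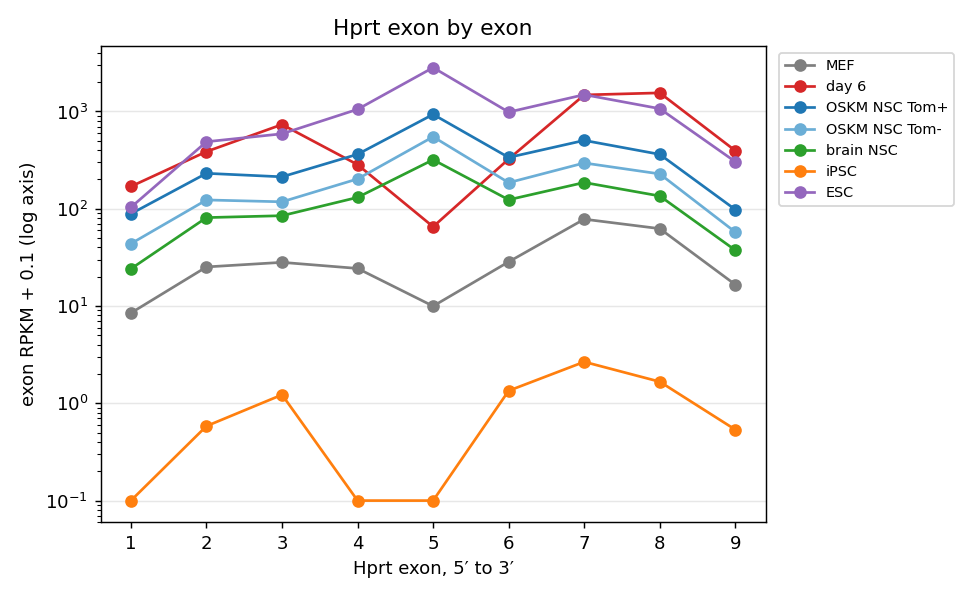
RPKM of each of the 9 Hprt exons from 5′ to 3′ in each of the 7 libraries, with 0.1 RPKM added and a log axis, 1 line per library. The iPSC line lies below all others at every exon, and the MEF and day 6 lines drop at exon 5, where the ESC and NSC lines peak.

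The Hprt profile also differed in the middle of the gene. Exon 5, of 18 bases, held 0.61 to 0.69 times the mean reads of exons 4 and 6 in the 3 NSC libraries and ESC. In MEF the ratio was 0.090 and on day 6 it was 0.051. The iPSC library had too few reads for a ratio. Among 26 exons of 16 to 20 bases in other genes, the median ratio was 0.41 to 0.50 in every library. These exons ranged from 0.0055 to 0.99 in MEF and from 0.021 to 0.94 on day 6. The 2 low Hprt values lay within these ranges, which are so wide that they hold almost any value. How much the same short exon differs between libraries was not computed. Exons 4 to 6 together held 0.30 times the reads of exons 3, 7 and 8 in MEF and 0.14 on day 6, against 0.71 to 0.78 in the 3 NSC libraries and ESC. In iPSC the ratio was 0.23, from few reads. Day 6 had the least even exon coverage of the 7 libraries, and the part of coverage in these ratios was not tested. The exons compared were chosen after their values were seen. Reads that pass over exon 5 count in it, so the low values are of reads crossing this stretch.

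In Upp1 the first exons divided the pluripotent libraries from the others. The annotated first exons named here, chosen after their values were seen, lie at 9118103 to 9118284 (A), 9118507 to 9118660 (B) and 9118787 to 9118867 (C), and each is joined to exon 2 at 9119374 to 9119449. Reads at A were 0.052 and 0.047 times those at exon 2 in iPSC and ESC. In MEF, Tomato-positive NSC, Tomato-negative NSC and brain NSC the ratio was 0.61, 0.54, 0.75 and 0.70. The RPKM of A was therefore lower in iPSC (15.4) and ESC (17.8) than in brain NSC (27.1), although the gene level was 9.47-fold higher in iPSC than in brain NSC. Reads at B were 0.43 to 0.60 times those at exon 2 in the NSC, iPSC and ESC libraries and 0.26 times in MEF.

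Reads spliced from A to exon 2 count at B and C as well, so the use of B can be bounded only where B held more reads than A. In iPSC, 1479 reads were counted at B and 163 at A, so at least 1316 did not touch A. In ESC the counts were 1216 and 133, which leaves at least 1083. In Tomato-negative NSC, A held 200 reads and B 151, and in brain NSC A held 133 and B 91. In both of these libraries the reads at B could all have come from A. In Tomato-positive NSC, B held 34 reads and A 31, which leaves at least 3. MEF held 14 reads at A and 6 at B, too few to order. On day 6 no read fell on A, B or C, where 3 reads would be 0.358, 0.423 and 0.805 RPKM, and exon 2 held 6 reads.

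**Figure D3:**
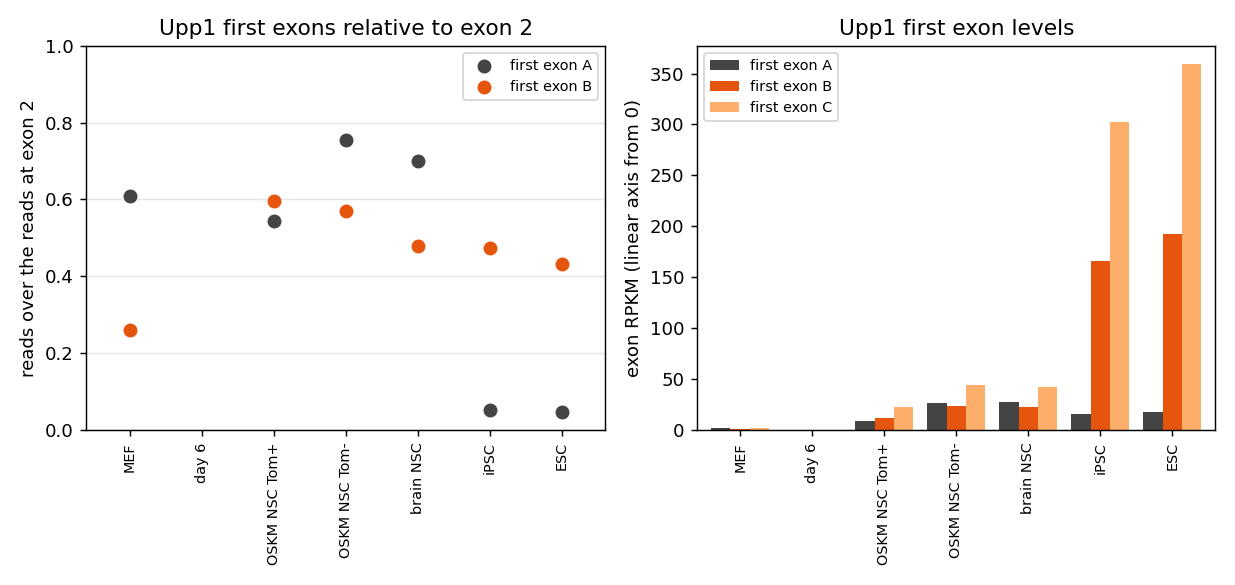
Left, reads at Upp1 first exons A and B divided by the reads at exon 2 in each library (day 6, with no read at either, is left out). Right, RPKM of first exons A, B and C on a linear axis from 0. A stands near 0.05 of exon 2 in iPSC and ESC and at 0.54 to 0.75 in the 4 other libraries shown, and B and C reach their highest RPKM in iPSC and ESC.

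A gene was counted as different where every pair of libraries across the 2 sides differed by at least 2-fold in 1 direction on the log2(RPKM + 1) scale, which understates changes of low genes. The MEF library is of strain A12 and the day 6 cells are B6/129, so it is not their starting culture. On day 6, 5 of the 9 genes passed against MEF, 3 higher and 2 lower. Over all 16154 genes measured, 22.4% were higher and 31.2% lower, 53.6% in all, so the count was near the background. Hprt was 21.4-fold higher (interval 20.2 to 22.5), with a log2 ratio of 4.36. Tyms was 3.02-fold higher (2.88 to 3.17) and Uck2 2.44-fold higher. Upp1 was 14.8-fold lower (8.82 to 17.8) and Aprt 2.36-fold lower. The ratio of Aprt reads was 0.313 (0.303 to 0.323), against 0.423 by gene level. For Uck2 the ratio of reads was 1.95 (1.87 to 2.03), and over the highest exon the log2 ratio fell to 0.44, which did not pass. Over the median exon Tyms did not pass either, at a log2 ratio of 0.43. The day 6 library had uneven exon coverage at Aprt, with its first exon at 395 RPKM against 325 in MEF and its last at 69.4 against 300.3, and the part of coverage in the Aprt difference was not tested.

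The comparison of day 6 with iPSC and ESC asks how close the intermediate cells were to pluripotent ones. Upp1 was 926-fold lower than in iPSC and 1089-fold lower than in ESC. As ratios these were 0.00108 (0.000877 to 0.00172) and 0.000919 (0.000739 to 0.00145). By gene level Upp1 was the only gene of the 9 past 2-fold against both, where 19.1% of all genes were lower and 9.2% higher, 28.3% in all. Aprt was 0.536 times its iPSC level and 0.690 times its ESC level. The ratio of Aprt reads was 0.395 (0.383 to 0.407) against iPSC and 0.487 (0.471 to 0.504) against ESC. Over the highest exon Aprt passed as lower too. Against ESC alone, Tk1 was also lower (2.14-fold, a ratio of 0.467 with an interval of 0.447 to 0.487). Against iPSC alone, Hprt was 772-fold higher (586 to 1041) and Adk 2.08-fold higher. Hprt on day 6 was 0.941 times its ESC level (0.926 to 0.957).

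Between day 6 and the OSKM NSC, 3 genes passed. Upp1 was 47.7-fold higher in Tomato-positive NSC (28.9 to 57.8) and 91.8-fold higher in Tomato-negative NSC (56.2 to 110.5). Dck was 3.17-fold (3.03 to 3.30) and 2.73-fold (2.63 to 2.84) higher. Hprt fell by 1.40 and 2.20 on the log2 scale, to 0.379 and 0.216 times its day 6 level. Over all genes 24.4% were higher and 11.2% lower, 35.6% in all. The share of higher among all passing genes was 68.5%, and 47.8% after median-of-ratios scaling, and under that scaling the 3 genes passed too, with Pnp lower as well. The Hprt call depends on the exons used, and over the median exon Hprt did not pass. The highest exon, chosen by its mean over the 7 libraries, was the short exon 5. Over it Hprt passed as higher in both OSKM NSC libraries (log2 ratio 3.82 in Tomato-positive NSC). On day 6, exon 5 stood at 65.2 RPKM and exon 8 at 1553. Without the Tomato-positive library 5 genes passed, with Uck2 and Pnp lower as well.

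The OSKM NSC differed from brain NSC at Tk1 and Tyms. Tk1 was 4.12-fold (3.86 to 4.41) higher in Tomato-positive and 2.40-fold (2.25 to 2.56) higher in Tomato-negative NSC. Tyms was 9.61-fold (8.86 to 10.4) and 5.05-fold (4.66 to 5.49) higher. No gene of the 9 was lower, and over all genes 8.16% were higher and 5.08% lower, 13.2% in all. The higher share of passing genes was 61.7%, and 48.7% after median-of-ratios scaling. Of the 14 S phase and proliferation genes, 10 were higher and none lower in the same comparison, among them Mcm5, a subunit of the replicative helicase, at 220.0 and 122.9 RPKM against 47.2 in brain NSC. Without the Tomato-negative library 7 of the 9 genes passed, 6 higher and Upp1 lower.

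Tomato-positive and Tomato-negative NSC differed by 2-fold at Aprt alone, which was 3.44-fold higher in the positive culture (ratio of reads 3.33 to 3.63). Over all genes 9.77% were higher and 5.5% lower, 15.3% in all. Without Aprt and Upp1, the other 7 genes were 1.16-fold to 1.94-fold higher in the positive culture as deposited. With equal totals, Dck and Pnp turned, at 0.859 and 0.954 times the negative culture, and with median-of-ratios scaling Dck was at 0.989 times. As deposited, Upp1 stood at 0.519 times its level in the negative culture (0.475 to 0.567). Of the genes that passed, 64.0% were higher as deposited, 44.7% after median-of-ratios scaling and 31.4% with equal totals. Under both scalings Aprt remained higher, and Upp1 passed as lower. The fibroblast markers stood at 1447 RPKM in the positive and 108 in the negative culture, and Aprt was highest in MEF. The part of fibroblast RNA in the Aprt difference was not tested.

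Against MEF, the pluripotent and neural libraries were higher at most of the 9 genes that passed. These comparisons share the MEF library, so they are not independent. In iPSC and ESC, Upp1, Tk1, Tyms and Uck2 were higher and none was lower, where 20.5% of all genes were higher and 18.9% lower, 39.4% in all. Over the highest exon Uck2 did not pass (log2 ratio 0.94 in iPSC) and Dck did, and without the ESC library Hprt and Adk were lower. Upp1 was 62.4-fold higher in iPSC (59.2 to 71.5) and 73.4-fold higher in ESC (70.3 to 84.9). In both OSKM NSC libraries, Upp1, Hprt, Tk1, Tyms and Dck were higher and none was lower, beside 17.8% higher and 15.4% lower of all genes, 33.2% in all. Over the highest exon Upp1 did not pass (log2 ratio 0.64 in Tomato-positive NSC), and without the Tomato-positive library Aprt was lower. In brain NSC, Upp1, Hprt and Dck were higher, and Aprt and Adk lower, beside 21.7% higher and 22.2% lower of all genes, 43.9% in all. Adk did not pass with equal totals (log2 ratio -0.71), over the highest exon (-0.79) or over the median exon (-0.87). Pnp was lower over the highest exon and with median-of-ratios scaling, and Tyms over the median exon. Between the 3 NSC libraries together and the 2 pluripotent libraries, Upp1 alone passed, lower in NSC, where 10.4% of all genes were lower and 10.4% higher, 20.9% in all.

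The rest of the pathway was read from 7 lists of 83 genes, given here by counts and by the median log2 ratio of the genes that reached 2 RPKM. On day 6, 10 of 13 de novo purine genes were higher than in MEF and 1 was lower, with a median of 1.70 against -0.13 over all genes. Ppat, which commits precursors to purine synthesis, stood at 93.7 RPKM on day 6 and 7.46 in MEF. Gart, which carries out later steps, stood at 204.9 and 30.1. The gene that was lower, Adssl1, is the muscle form of adenylosuccinate synthase, at 0.288 and 21.5 RPKM. Of 5 de novo pyrimidine genes, Cad and Umps were higher on day 6 and Ctps2 was lower. Umps, which makes UMP from orotate, stood at 129 RPKM on day 6 and 13.3 in MEF.

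Genes that supply deoxynucleotides were also counted. Of 15 measured, 8 were higher and none lower on day 6, with a median of 1.03. Shmt1, which feeds one-carbon units to Tyms, stood at 127 RPKM against 5.99 in MEF. Dut, which makes the deoxyuridylate that Tyms uses, stood at 225 against 47.9. Of 14 S phase genes, 12 were higher and E2f1 was lower on day 6, with a median of 2.0. Of the other salvage and interconversion genes, 4 of 20 were higher and 7 lower, with a median of -0.27, beside 22.4% higher and 31.2% lower of all genes. Dctd, a dCMP deaminase, stood at 81.1 RPKM on day 6 and 6.41 in MEF, while Nt5m, a mitochondrial nucleotidase, stood at 8.72 and 22.3. Of 2 breakdown genes measured, Xdh and Gda were both lower, at 0.427 and 0.246 RPKM on day 6 against 6.45 and 7.84. Of 5 nucleoside transporters, Slc28a1 and Slc29a3 were higher.

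In iPSC and ESC, 8 of 13 de novo purine genes were higher than in MEF, with 3 of 5 pyrimidine genes, 8 of 15 deoxynucleotide genes and 10 of 14 S phase genes, beside 20.5% of all genes. Only Samhd1, which hydrolyses deoxynucleotides, was lower in these 4 lists. In the OSKM NSC the counts were 4 of 13, 3 of 5, 8 of 16 and 11 of 14 higher, beside 17.8% of all genes, and Impdh1, Adssl1 and Samhd1 were lower. In brain NSC they were 2 of 13, 2 of 5, 6 of 16 and 0 of 14 higher, beside 21.7% of all genes, with the S phase median at 0.32 against 0.14 over all genes. Impdh1, Adssl1, Ctps, Samhd1, Ccne1 and E2f1 were lower in brain NSC. With equal totals, 2 S phase genes were higher in brain NSC and 1 was lower, and 6 in place of 2 de novo purine genes were higher. Slc29a1, the main equilibrative nucleoside transporter, measured 32.2 RPKM in MEF and 46.7 on day 6, 155 and 63.7 in the Tomato-positive and Tomato-negative NSC, 78.9 in brain NSC, and 323 and 171 in iPSC and ESC. Slc28a1, a concentrative transporter of pyrimidine nucleosides, stood at 8.39 RPKM on day 6, 19.3 in iPSC and 19.2 in ESC, and at most at 0.0249 in the 4 other libraries.

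**Figure D4:**
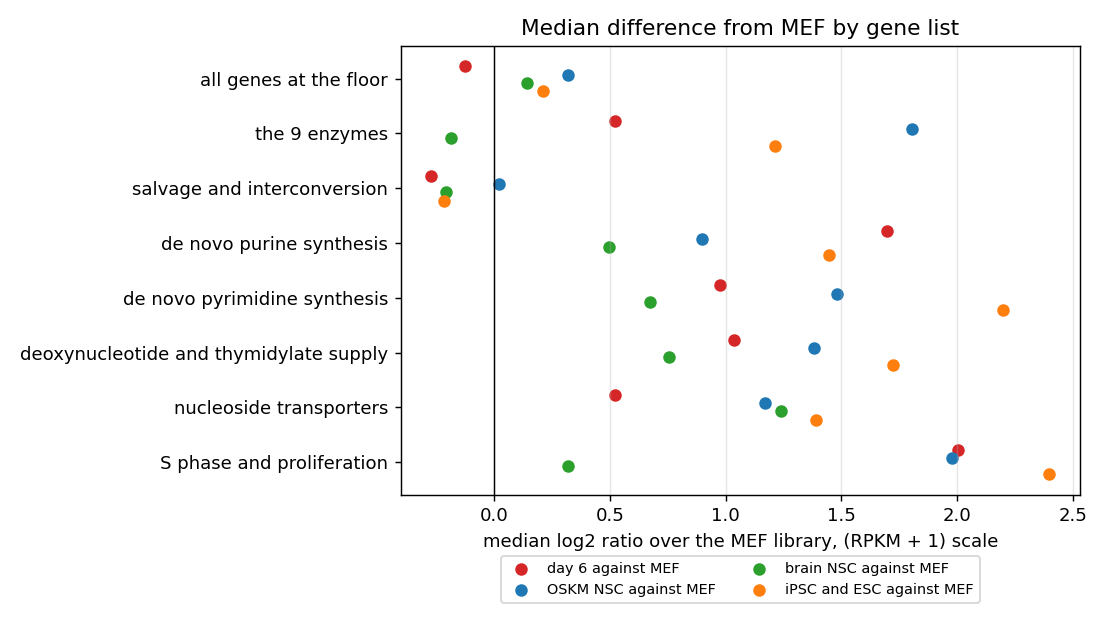
Median log2 ratio over the MEF library, on the RPKM + 1 scale, for all genes, the 9 enzymes and 6 pathway lists, 1 point per comparison (with 2 libraries on a side, the mean of their ratios was taken for each gene). The S phase and proliferation medians lie at 2.0 on day 6, 1.98 in OSKM NSC and 2.40 in iPSC and ESC, and at 0.32 in brain NSC, while the other salvage genes stay between -0.27 and 0.02.

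Genes whose levels were most like each member were sought among 13364 coding genes by Pearson r of log2(RPKM + 1) over the 7 libraries. With so many genes and 7 points, high values arise readily, and they are given as a description only. For Upp1 these were Cggbp1 (0.99) and Dynll2 (0.99), and for Hprt Eef1akmt2 (0.94) and Gdi2 (0.92). For Tk1 Mtch2 (0.99) is given, and for Tyms Gon7 (0.99) and Fen1 (0.99), a nuclease of DNA replication. For Dck they were Foxred1 (0.99) and Psip1 (0.99), for Uck2 Snrpe (0.99) and Tomm7 (0.99), and for Aprt Mvb12a (0.94) and Nans (0.93). For Pnp they were Def6 (0.99) and Jup (0.98), and for Adk Hoxb2 (0.97) and Sem1 (0.97). Hprt and Aprt had the lowest best match of the 9 genes.

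Within genes, exon rows pointed to values that rest on few exons. In ESC the first exon of Tyms stood at 23.1 RPKM against 146 in iPSC, and at 0.19 times the median Tyms exon, where the other libraries held 0.40 to 0.72 times. Over exons of at least 50 bases with enough reads in every library, the Tyms profile spread by 0.67 (standard deviation of log2) in ESC and 0.66 on day 6, and by 0.076 to 0.34 elsewhere. Adk and Tk1 were the least even on day 6, at 1.14 and 1.02. At the 3′ exon of Pnp, 50965173 to 50965237, day 6 stood at 180 RPKM and the other libraries at 4.56 to 23.3. The Uck2 level in ESC depended on its longest exon row, with 139.5 RPKM there and 795 at exon 3, against 152 and 373 in iPSC.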

How the data were processed

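RNA-seq of 7 mouse libraries was used, 1 per group. The authors deposited RPKM per Ensembl exon and library. CASAVA 1.8.2, Bowtie, TopHat2 2.0.10, bedtools and mm10 are named in the submitters' processing notes, with no role. Of 279252 exons, 270168 (96.7%) matched GENCODE M21 by exon ID. A total of 14816 shared bases with another gene's exon, on either strand, and strand was not used.

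Gene values are exon-length-weighted mean RPKM. Depth was read from the value steps: 96.3% to 96.5% of values under 5000 reads were whole reads, within 0.01 read plus 1e-05 of the value. Reads are counted in every exon they touch or pass over, so intervals (95% exact, Clopper-Pearson, over exons that do not overlap) are too narrow, and are printed where they hold the RPKM ratio or are named as a ratio of reads. A value of 0 allows 3 reads.

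Ratios are log2((a + 1)/(b + 1)). Genes reaching 2 RPKM in a compared library were counted at 2-fold. Scripts (Python 3.11.15, pandas 2.3.3, numpy 2.4.6, scipy 1.17.1) were tested on simulated data. Alternatives were 2 scalings, pseudocounts of 0.25 and 4, floors of 8 and none, and other exon sets. The highest exon of a gene is the row with the highest mean RPKM over the 7 libraries. Further alternatives, and each library left out, were chosen after seeing the data. The members and lists were chosen with earlier results of these data known. Named genes are the 9 members, up to 4 genes per list with the widest range, and the 2 coding genes most like each member. A gene that this rule names is not reported here. Other genes named, including the Hprt neighbours and single list genes, were chosen after their values were seen. Nested genes inside introns carry their host's reads and stay in the background shares.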

Additional observations from a re-analysis of the deposited data

How the results depend on the processing

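Each group has 1 library, so nothing below measures variation between cultures, and levels under about 3 reads per exon cannot be told from 0. No paired analysis was possible because each group has 1 library and the labels pair none. The count of Hprt exons lower in iPSC was 9 under every alternative run for it (2 scalings, 2 pseudocounts, 2 floors). Alternative log2 ratios were run for 1 pair of libraries per passing member and comparison, the pair with the smallest difference. Of 280 such ratios, 155 stayed within the counting interval, 124 moved outside it in the same direction and 1 reversed. The reversed ratio was Hprt in Tomato-positive NSC over day 6, at 3.82 with the highest exon, the 18-base exon 5, against -1.40. Hprt in Tomato-negative NSC, outside these 280, passed as higher over this exon too.

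The number of members past 2-fold moved by over 1.5 times in these cases, and other counts moved less or stayed, in part with other genes. For day 6 against iPSC and ESC (1), it was 2 with the highest exon, which adds Aprt. It was 2 with iPSC left out and 3 with ESC left out. For OSKM NSC against day 6 (3), it was 5 with Tomato-positive NSC left out. For OSKM NSC against brain NSC (2), it was 7 with Tomato-negative NSC left out. For Tomato-positive against Tomato-negative NSC (1), it was 2 with equal totals, with or without Gm42418, 2 with median-of-ratios scaling, 2 with the median exon and 3 with the highest exon. For iPSC against ESC (1), it was 2 with the median exon, which adds Tyms. For the 3 NSC libraries against iPSC and ESC (1), it was 2 with Tomato-positive NSC, iPSC or ESC left out. The cause was not tested where only the exon choice or scaling changed. Scaling moved the median log2 ratio of all genes by over 0.1 in several comparisons, most for OSKM NSC against day 6, from 0.41 to -0.07 with median-of-ratios scaling, where lower de novo purine genes went from 1 to 8. The share of higher genes among those that passed also moved by over 10 points for iPSC against ESC (34.7% to 54.1% with equal totals), brain NSC against MEF (49.4% to 62.2% with equal totals), OSKM NSC against MEF (53.6% to 35.7% with median-of-ratios scaling) and day 6 against iPSC and ESC (32.5% to 47.0% with median-of-ratios scaling).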
